A study of Homo sapiens with 6 samples.

Results

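Protein depalmitoylating enzymes were examined in NCI-N87 cells, an established gastric carcinoma line, with and without knockdown of SCAMP1. The members were the protein-coding genes named LYPLA1, LYPLA2, LYPLAL1, PPT1, PPT2, ABHD17A, ABHD17B, ABHD17C and ABHD10, which are 9 of the 58735 genes in the deposited table. All 9 were found and all 9 passed the filter, a mean over the 6 libraries of 0.5 FPKM or more (FPKM, read fragments per gene length and per size of the library). The set was put together around LYPLA1, which was selected on its FPKM difference between these same groups. The other enzymes were listed with it as depalmitoylating enzymes, and their activity on proteins was not tested here. Their values in this comparison are therefore a description, no p-value is given for a member, and nothing is supported with their calls.

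S-palmitoylation attaches a fatty acid to cysteine residues of proteins through a thioester bond and holds these proteins at membranes. Palmitoyltransferases of the ZDHHC family add the group, and serine hydrolases remove it, so a protein such as a Ras GTPase can cycle between the plasma membrane and the Golgi apparatus. LYPLA1 and LYPLA2 encode the cytosolic acyl-protein thioesterases APT1 and APT2, the ABHD17 genes encode membrane-attached depalmitoylases, and PPT1 and PPT2 encode thioesterases of the lysosome.

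The study compared NCI-N87 cells that carried the shNC vector (3 samples, named shCtrl in the paper) with cells that carried the shScamp1 vector (3 samples, named shS1#1 in the paper). Both groups received lentivirus with polybrene (1 μl/ml) for 24 h and puromycin (2 μg/ml), and RNA was taken at about 80% confluence. The control is an empty vector per the methods, so that it holds no hairpin, and the RNA-seq rests on a single SCAMP1 hairpin in stably selected populations. The samples are called biological replicates in the labels, but nothing states that they came from separate infections, so the spread between them may be partly technical.

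Depth was recovered from the FPKM steps, and the 6 libraries held 14311769 to 15988700 reads on genes. SCAMP1, the targeted gene, was at 11.5 to 12.6 FPKM in the shNC libraries and at 1.37 to 1.99 FPKM in the shScamp1 libraries, without overlap. All 6 epithelial markers were detected, from 55.1 FPKM for CDH1 to 1688 FPKM for KRT19 on average in shNC cells. Of 8 markers of immune, endothelial and mesenchymal cells, 7 were under the filter with at most 4 reads in any library, and COL1A1 was at 0.617 FPKM in shNC and 0.670 FPKM in shScamp1 cells. Of the epithelial markers, 4 passed the limma test as higher in shScamp1 cells (CDH1, KRT8, KRT18 and KRT19, log2 fold changes of 0.45 to 1.19), and their part in the results was not tested. One library stood apart: shScamp1 replicate 2 held 9.21% mitochondrial reads, against 6.09% to 6.78% in the others, and was the farthest of its group for 63.0% of the genes tested and for 6 of the 9 enzymes. For several values that rest on this library, the value without it is also given below, and its part in them was not tested further.

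Matches to the seed of the shRNA were searched in the enzymes. An shRNA silences its target by pairing along the guide, and bases 2 to 8 of the guide, the seed, can also pair with other transcripts. For shS1#1 the seed match reads TACAGAA, and these 7 letters were searched, not the whole target. In the longest GENCODE 29 3′ UTR, SCAMP1 holds this site 2 times, both on the forward strand of chromosome 5 (GRCh38) and shown here with 7 bases on either side, the capitals marking the site:
SCAMP1 site 1 (chr5:78477160-78477166): ctgtagtTACAGAAaaagttt
SCAMP1 site 2 (chr5:78478168-78478174): atggttcTACAGAAatgccct
Site 1 lies within the sequence that the methods give as the shRNA target. The site was present in 0 of the 9 enzyme 3′ UTRs, which are 390 to 2600 bases long. Of 11461 tested protein-coding genes, 18.1% held it, with a median 3′ UTR length of 1342 bases. For a set of only 9 genes, a count of 0 is not unusual at that share. These letters were searched on the transcript strand of 1 annotated 3′ UTR per gene, which says nothing of other regions.

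LYPLA1 (ENSG00000120992, reverse strand of chromosome 8, 54046367 to 54102017, GRCh38) was the enzyme that the set was built around. It was at 4.96, 5.05 and 4.84 FPKM in the shNC libraries and at 14.0, 14.1 and 14.3 FPKM in the shScamp1 libraries. The groups were far apart and the replicates of each lay close together, shScamp1 replicate 2 included. The mean went from 4.95 ± 0.105 to 14.2 ± 0.172 FPKM (SD, n = 3 each), which is 2.86 times the control level. On the log2(FPKM + 0.1) scale the difference was 1.498 with a standard error (SE) of 0.06, and by its size in either direction it ranked 459 among the 15556 genes tested. In reads, LYPLA1 had 351 to 395 per shNC library and 908 to 985 per shScamp1 library, so its values do not rest on few reads. In bulk RNA, more transcript in every cell and more cells with the transcript cannot be told apart. The table also lists 3 LYPLA1 pseudogenes, which together had 2 to 8 reads per library.

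LYPLA2 (ENSG00000011009, forward strand of chromosome 1, 23790970 to 23795539), the closest paralog of LYPLA1, was at 25.1, 25.7 and 25.3 FPKM in shNC and at 32.8, 24.8 and 31.7 FPKM in shScamp1 libraries. Replicates 1 and 3 of shScamp1 lay above every control, while replicate 2 lay below them all. The log2 fold change was 0.22 (SE 0.11) with all libraries and 0.35 without shScamp1 replicate 2. LYPLAL1 (ENSG00000143353, forward strand of chromosome 1, 219173844 to 219212865), a related hydrolase, showed the same split. It was at 4.61, 4.86 and 4.65 FPKM in shNC and at 6.42, 3.42 and 5.92 FPKM in shScamp1 libraries. Its log2 fold change was 0.11 (SE 0.23) and became 0.38 without shScamp1 replicate 2, so the size of both depended on that library. Without shScamp1 replicate 1 the value of LYPLAL1 turned to -0.06, and without replicate 3 to -0.0039, so that its direction rested on single libraries too. LYPLA1 was at 0.191 to 0.198 times the FPKM of LYPLA2 in shNC libraries and at 0.427 to 0.569 times in shScamp1 libraries, without overlap. Relative to LYPLAL1, it went from 1.04 to 1.07 times in shNC libraries to 2.18 to 4.13 times in shScamp1 libraries. Both upper ends (0.569 and 4.13) were shScamp1 replicate 2. Replicates 1 and 3 were at 0.427 and 0.452 times LYPLA2, and at 2.18 and 2.42 times LYPLAL1. Since LYPLA1 was selected on this comparison, the separation of these ratios is no support for it.

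**Figure D1:**
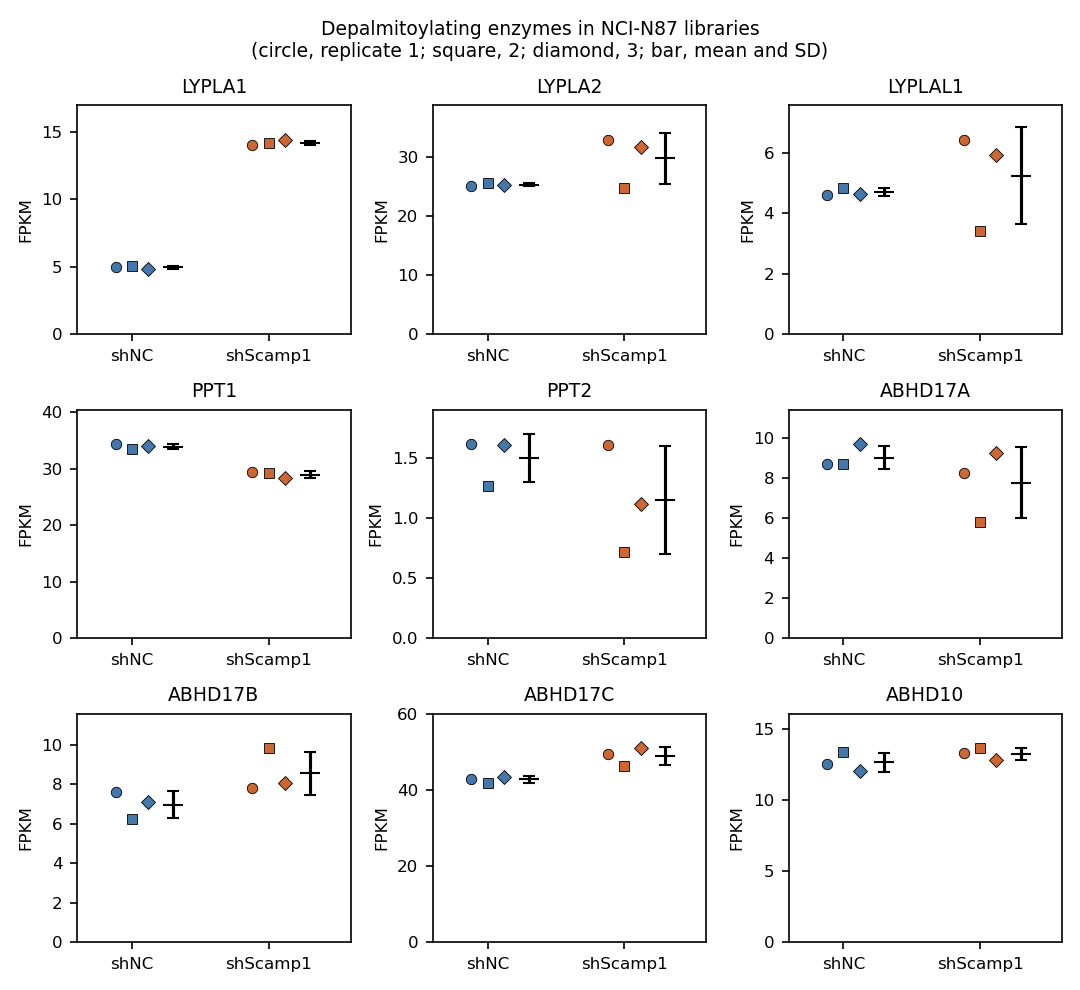
FPKM (y axes from 0) of the 9 enzymes in each library, with the groups on the x axes, 1 symbol per replicate, and the mean and SD beside them. LYPLA1 went from 4.84 to 5.05 FPKM in shNC to 14.0 to 14.3 FPKM in shScamp1, and the square, replicate 2, stood apart in shScamp1 for LYPLA2 and LYPLAL1.

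The lysosomal thioesterases were lower or overlapped between the groups. PPT1 (ENSG00000131238, reverse strand of chromosome 1, 40071461 to 40097727), whose loss causes an infantile form of neuronal ceroid lipofuscinosis, was at 34.3, 33.4 and 34.0 FPKM in shNC and at 29.4, 29.2 and 28.3 FPKM in shScamp1 libraries. All 3 shScamp1 libraries were below all controls. The mean went from 33.9 ± 0.441 to 28.96 ± 0.585 FPKM (SD, n = 3 each), or 0.853 times the control level, and the log2 fold change was -0.23 (SE 0.06). The last 1189 bases of PPT1 overlap CAP1 on the opposite strand, and the strand setting of the counting is not stated. CAP1 had a log2 fold change of 0.20, opposite in sign to that of PPT1. PPT2 (ENSG00000221988, forward strand of chromosome 6, 32153441 to 32163680) was the lowest of the enzymes, with 29 to 75 reads per library. It was at 1.61, 1.27 and 1.61 FPKM in shNC and at 1.61, 0.721 and 1.12 FPKM in shScamp1 libraries. The groups overlapped, and the log2 fold change of -0.41 (SE 0.28) became -0.14 without shScamp1 replicate 2. The read-through gene PPT2-EGFL8 shares 9836 bases with PPT2 on the same strand and had 2 to 10 reads per library. How reads that fit both genes were counted is not given in the sources used here, so the level of PPT2 is uncertain.

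Among the ABHD17 depalmitoylases, which act on N-Ras and on synaptic scaffold proteins, ABHD17C (ENSG00000136379, forward strand of chromosome 15, 80679684 to 80755621) was the most abundant. It was at 42.9, 41.7 and 43.5 FPKM in shNC and at 49.4, 46.3 and 50.9 FPKM in shScamp1 libraries. The groups did not overlap, and the log2 fold change was 0.19 (SE 0.06). With scaling by total reads it was 0.12. ABHD17B (ENSG00000107362, reverse strand of chromosome 9, 71862452 to 71910931) was at 7.61, 6.23 and 7.09 FPKM in shNC and at 7.84, 9.83 and 8.06 FPKM in shScamp1 libraries. Its groups were also apart, but by little, since shScamp1 replicate 1 lay near shNC replicate 1. The log2 fold change of ABHD17B was 0.29 (SE 0.12), and 0.19 without shScamp1 replicate 2. ABHD17A (ENSG00000129968, reverse strand of chromosome 19, 1876810 to 1885547) was at 8.71, 8.67 and 9.67 FPKM in shNC and at 8.24, 5.82 and 9.25 FPKM in shScamp1 libraries. These groups overlapped, and the log2 fold change of -0.24 (SE 0.17) became -0.04 without shScamp1 replicate 2. ABHD17A has 8 pseudogenes in the table, with 5 to 16 reads per library in all, and how reads shared with such copies were counted is not given in the sources used here. ABHD17C made up 72.2% to 73.7% of the summed ABHD17 FPKM in shNC libraries and 74.6% to 75.4% in shScamp1 libraries.

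ABHD10 (ENSG00000144827, forward strand of chromosome 3, 111979010 to 111993363), which encodes a mitochondrial depalmitoylase, differed least. It was at 12.5, 13.4 and 12.1 FPKM in shNC and at 13.3, 13.6 and 12.8 FPKM in shScamp1 libraries, with overlap between the groups. The log2 fold change was 0.07 (SE 0.07) and turned to -0.01 when the values were scaled by total reads.

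Of the 9 enzymes, 2 (LYPLA1, higher, and PPT1, lower) had a Benjamini-Hochberg adjusted p under 0.05 in limma, against 14.0% of all genes tested. The call of PPT1 was absent under 9 of 14 alternatives. These include each fit that left out a shNC library or replicate 1 or 3 of shScamp1. The log2 fold change of PPT1 lay between -0.30 and -0.21 over the 14. The call of LYPLA1 was present under all 14, but LYPLA1 was selected on this same difference, so this is no support for it. Without shScamp1 replicate 2, 5 of the 9 (with LYPLA2, LYPLAL1 and ABHD17C) were under 0.05, against 27.8% of all genes. With a log2 fold change beyond 1 in addition, 1 enzyme, LYPLA1, was called, against 3.16% of genes. The deposited FPKM of 4 of the 9 (LYPLA1, ABHD17B and ABHD17C higher, PPT1 lower) did not overlap between the groups, against 41.4% of all genes tested. For ABHD17B and ABHD17C this separation rests on the deposited scaling. With scaling by total reads their log2 fold changes were 0.22 and 0.12. Since the members were chosen with this comparison known, these calls and shares say nothing about the enzymes as a group. The median log2 fold change was 0.11 for the 9 enzymes and -0.02 for all genes tested. The former is the value of LYPLAL1, whose direction rested on single libraries, and it is not a shift of the enzymes as a group.

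**Figure D2:**
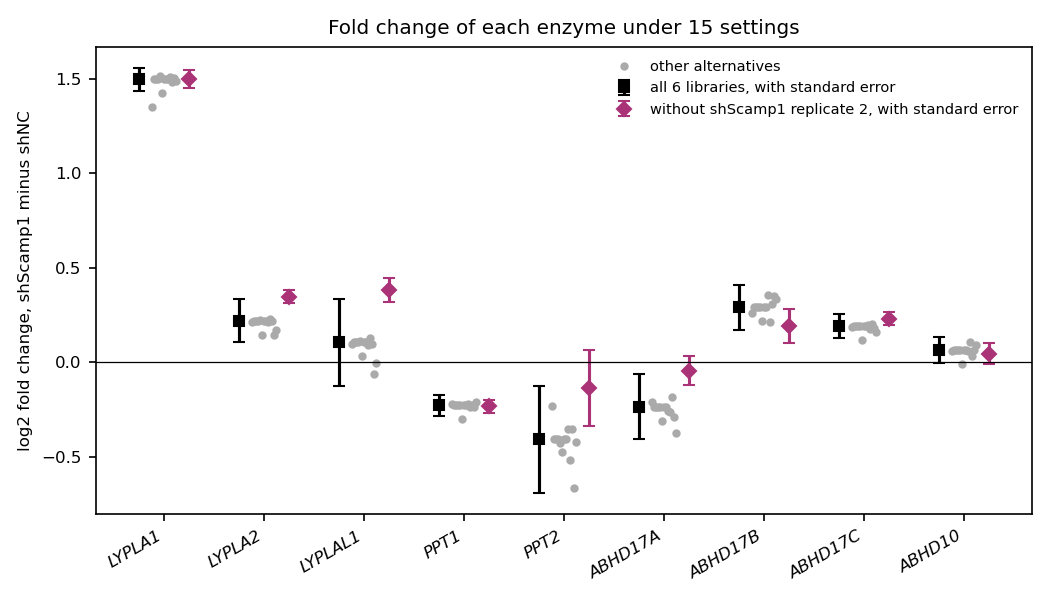
Log2 fold change (y axis, shScamp1 minus shNC, on the log2(FPKM + 0.1) scale unless the pseudocount was changed) of each enzyme (x axis) with all 6 libraries (squares), without shScamp1 replicate 2 (diamonds; bars on both, standard error) and under 13 other alternatives (grey). LYPLA1 lay between 1.35 and 1.51, while LYPLAL1 moved from 0.11 to 0.38 without that library.

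The order of the enzymes by mean level differed between the groups. In shNC cells the FPKM levels ran from ABHD17C (mean 42.7) through PPT1 (33.9), LYPLA2 (25.4), ABHD10 (12.7), ABHD17A (9.02), ABHD17B (6.97), LYPLA1 (4.95) and LYPLAL1 (4.71) to PPT2 (1.49). Of these neighbours, LYPLA1 and LYPLAL1 were the pair whose ranges overlapped. In shScamp1 cells LYPLA1 took place 4, above ABHD10, and its lowest library (14.0 FPKM) lay above the highest of ABHD10 (13.6 FPKM). LYPLA2 and PPT1 changed places, as did ABHD17A and ABHD17B, but the ranges of both pairs overlapped in shScamp1 libraries, as did those of ABHD17A and LYPLAL1. LYPLA1 made up 3.39% to 3.60% of the summed FPKM of the 9 enzymes in shNC libraries and 8.59% to 9.56% in shScamp1 libraries. The share of PPT1 went from between 23.8% and 24.1% to between 17.4% and 19.7%. The sum was 142 ± 1.35 FPKM in shNC and 158 ± 8.61 FPKM in shScamp1 libraries (SD, n = 3 each). Without LYPLA1, the sum was 135 to 138 FPKM in shNC and 134 to 149 FPKM in shScamp1 libraries, and the groups overlapped. This overlap rested on shScamp1 replicate 2 (134 FPKM), while replicates 1 and 3 were at 149 and 148 FPKM.

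**Figure D3:**
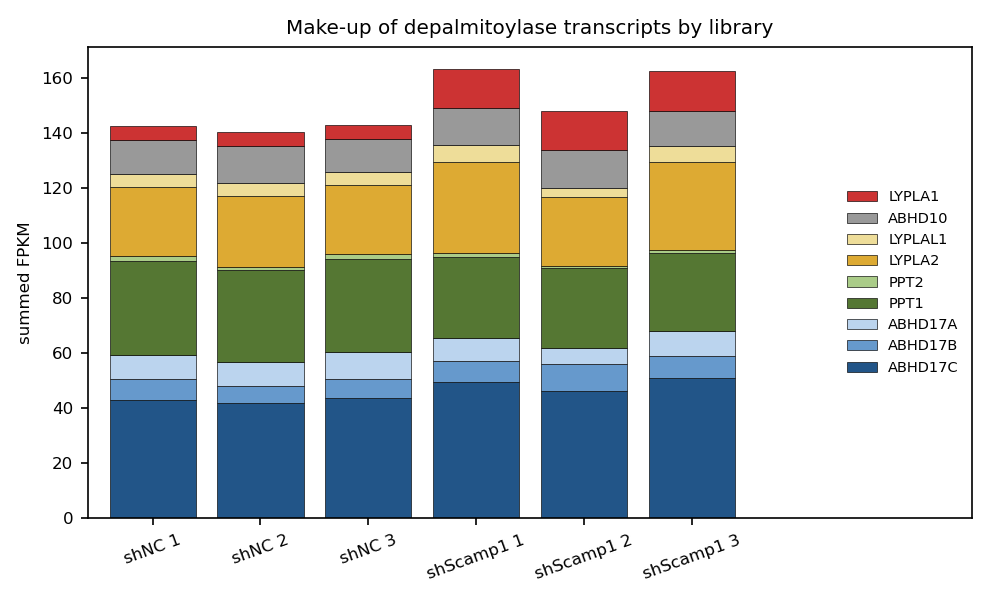
Summed FPKM (y axis, from 0) of the 9 enzymes in each library (x axis), stacked by gene. The LYPLA1 segment at the top was 3.39% to 3.60% of the sum in shNC and 8.59% to 9.56% in shScamp1 libraries.

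The genes beside LYPLA1 on chromosome 8 were compared with it to see whether the difference extended along the chromosome. The 3 nearest tested protein-coding genes on each side were ATP6V1H, RGS20 and TCEA1 toward the lower coordinates and MRPL15, RP1 and TMEM68 toward the higher. MRPL15, a mitochondrial ribosomal protein gene whose 5′ end lies 33.2 kb from that of LYPLA1, was at 22.9 ± 0.495 FPKM in shNC and 21.3 ± 1.01 FPKM in shScamp1 cells (SD, n = 3 each). Its log2 fold change was -0.11 (adjusted p = 0.302 in limma). TCEA1, a transcription elongation factor gene with its 5′ end at -79.5 kb (toward lower coordinates), had a log2 fold change of -0.19 (adjusted p = 0.356 in limma). ATP6V1H, a subunit of the vacuolar proton pump, was the 1 neighbour that passed the test, with 4.14 ± 0.0611 FPKM in shNC and 5.68 ± 0.182 FPKM in shScamp1 cells (SD, n = 3 each). Its log2 fold change was 0.45 (adjusted p = 0.00883 in limma), and the adjusted p ranged up to 0.0551 over the alternatives, passing in 10 of 14. The remaining log2 fold changes were -0.18 for RGS20, -0.09 for RP1 and -0.43 for TMEM68, with adjusted p of 0.699, 0.827 and 0.0797 in limma.

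**Figure D4:**
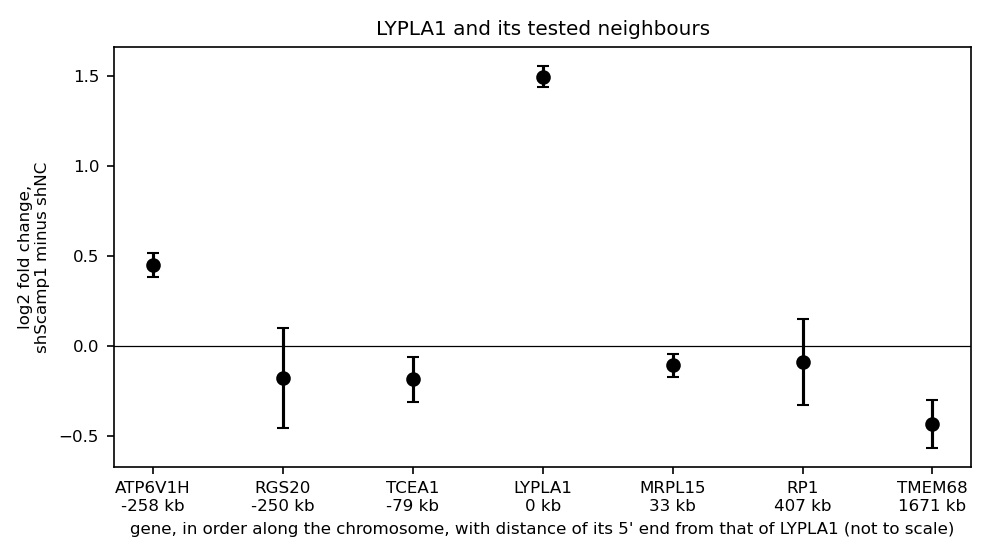
Log2 fold change with standard error (y axis, shScamp1 minus shNC) of LYPLA1 and of the 3 nearest tested protein-coding genes on each side, in chromosomal order (x axis, not to scale) with the distance between 5′ ends in kb. LYPLA1 was at 1.498 and its neighbours lay between -0.43 and 0.45.

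Genes with a pattern like that of LYPLA1 were ranked by the root mean square difference, over the 6 libraries, between their log2 deviations from the shNC mean and those of LYPLA1. Among the 6576 protein-coding genes that averaged 5 FPKM or more, the 5 nearest were PADI3 (0.0297), IL20RA (0.0395), SCEL (0.0416), KRT16 (0.0689) and OAS1 (0.0698). PADI3 encodes a peptidylarginine deiminase of keratinizing epithelia, SCEL a cornified envelope protein, KRT16 a keratin, IL20RA a cytokine receptor subunit and OAS1 an interferon-induced enzyme. They differed by a log2 fold change of 1.46 to 1.54. Likeness here reflects mainly the shared difference between the groups, since it is measured on the same 6 libraries.

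The enzymes that add the acyl group were set beside the 9 listed as removing it. Of 27 palmitoyltransferase genes (24 ZDHHC genes and the accessory subunits GOLGA7, GOLGA7B and SELENOK), 23 were tested and 5 passed an adjusted p under 0.05 in limma, 3 higher and 2 lower, against 8.82% and 5.17% of all genes tested. With scaling by total reads the balance turned, to 3 higher and 5 lower in this list and to 1138 higher and 1268 lower among all genes, against 1372 and 805 as deposited. Their median log2 fold change was -0.05, beside -0.02 for all genes. ZDHHC20, a plasma membrane transferase that modifies EGFR, was at 23.6, 22.9 and 21.7 FPKM in shNC and at 33.1, 42.2 and 34.5 FPKM in shScamp1 libraries. All shScamp1 libraries were above all controls, and the gene rose by 0.68 in log2 (SE 0.11), at an adjusted p of 0.0106 in limma. Without shScamp1 replicate 2 this rise was 0.57. ZDHHC9, which palmitoylates H-Ras and N-Ras, rose with a log2 fold change of 0.53 (adjusted p = 0.0179 in limma), or 0.44 without shScamp1 replicate 2. GOLGA7B rose by 0.62 on the same scale. ZDHHC8 (-0.50, adjusted p = 0.0189 in limma) and ZDHHC11 (-0.36) were lower, the latter uncertain because of its near-identical copy ZDHHC11B. The summed FPKM of the ZDHHC genes was 206 ± 2.33 in shNC and 216 ± 6.49 in shScamp1 cells (SD, n = 3 each), without overlap as deposited. This gap is small, and scaling by total reads moved the median of all genes by -0.07 in log2. The separation of the ZDHHC sums therefore rests on the deposited scaling. The 9 enzymes summed to 0.674 to 0.700 times the ZDHHC sum in shNC and 0.661 to 0.769 times in shScamp1 libraries, with overlap. That overlap rested on shScamp1 replicate 2 (0.661), while replicates 1 and 3 (0.762 and 0.769) lay above every control. The sum of the 9 includes LYPLA1, which was selected on this comparison, and these are sums of transcripts, not of enzyme activity. Leaving out single libraries gave between 0 and 12 called palmitoyltransferase genes. There were 0 without shNC replicate 2 or 3, and 2 without shNC replicate 1 or shScamp1 replicate 3. Without shScamp1 replicate 1 there were 3, and without shScamp1 replicate 2 there were 12. This count therefore rests on single libraries, as does that of all genes. Over all genes, 2177 were called with all libraries and 808 to 858 without 1 shNC library. Without shScamp1 replicate 1, 2 or 3, the calls over all genes were 1814, 4330 (27.8%) and 1030. List counts from left-out libraries, here and below, are to be read beside these.

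Other ABHD genes, relatives of ABHD17 and ABHD10 with mostly lipid substrates, were compared next. Of 17 listed, 13 were tested and 4 passed, all higher (8.82% of all genes were called higher), while the median was -0.04. Lower calls appeared under 3 alternatives, with 4 higher and 1 lower in voom and with protein-coding genes alone, and 5 higher and 2 lower without shScamp1 replicate 2. ABHD2, a membrane-bound hydrolase, was at 37.5, 38.2 and 37.2 FPKM in shNC and at 58.8, 90.7 and 64.4 FPKM in shScamp1 libraries. The control libraries were nearly level, and the highest shScamp1 value came from replicate 2. The log2 fold change was 0.89 (adjusted p = 0.0166 in limma), and 0.71 without shScamp1 replicate 2. ABHD5, the coactivator of adipose triglyceride lipase, rose from 1.72 ± 0.130 to 3.26 ± 0.322 FPKM (SD, n = 3 each), or by 0.88 in log2 (adjusted p = 0.00504 in limma). ABHD4 (0.88, with 44 to 91 reads per library) and ABHD12 (0.44, named after its value was seen) were higher as well. ABHD12 overlaps PYGB on the opposite strand, which had a log2 fold change of 0.43, and ABHD5 overlaps ANO10, which had 0.44. Left-out libraries gave 1 call without any 1 of the shNC libraries, 4 without shScamp1 replicate 1 and 3 without replicate 3. Without replicate 2 there were 7, in a fit that called 27.8% of all genes.

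Genes for other protein lipid modifications were compared as well. All 15 listed were tested and 2 passed, 1 in each direction, which is 13.3% beside 14.0% of all genes, with a median of 0.11. NOTUM, which removes the palmitoleate group from Wnt proteins, was at 5.12, 5.27 and 4.42 FPKM in shNC and at 1.88, 0.823 and 1.79 FPKM in shScamp1 libraries. The groups were apart in every library, and NOTUM passed at an adjusted p of 0.0147 in limma. Its log2 fold change of -1.73 (SE 0.30) became -1.38 without shScamp1 replicate 2. ZMPSTE24, the protease that processes prenylated prelamin A, rose with a log2 fold change of 0.53 (adjusted p = 0.0136 in limma), or 0.45 without shScamp1 replicate 2. The other 13, among them the myristoyltransferases and the prenyltransferase subunits, did not pass. No gene of this list was called in the 3 fits that each left out a shNC library. Without shScamp1 replicate 2, 4 were called, beside 27.8% of all genes.

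Genes encoding well known S-acylated proteins, the substrates of this cycle, were tested at the transcript level only. Of 45 listed, 36 were tested and 6 passed, 2 higher and 4 lower, with a median of -0.07. This share of 16.7% lay near the 14.0% of all genes. TEAD2, a transcription factor of the Hippo pathway, was lower at 3.13 ± 0.316 FPKM, against 7.80 ± 0.747 FPKM in shNC cells (SD, n = 3 each), with -1.29 in log2 (adjusted p = 0.00128 in limma), whereas TEAD1 of the same family rose by 0.92 (adjusted p = 0.0338 in limma). TEAD1 was highest in shScamp1 replicate 2 (24.5 FPKM, against 13.9 and 15.8 FPKM in replicates 1 and 3), its log2 fold change was 0.68 without that library, and it passed under 7 of 14 alternatives. TEAD2 overlaps CD37 on the opposite strand, which had a log2 fold change of -1.70, so its value is uncertain. The tetraspanin CD82 (0.65) was higher. CAV1 (-0.45), which forms caveolae, the hyaluronan receptor CD44 (-0.43) and CKAP4 (-0.31, named after its value was seen, and overlapping TCP11L2 on the opposite strand) were lower. HRAS and NRAS, whose proteins are classic clients of this cycle and which are named outside the rule for that, had log2 fold changes of 0.10 and 0.46 with adjusted p of 0.547 and 0.0518 in limma. The list had 1 call without any 1 of the shNC libraries or without shScamp1 replicate 3, and 4 without replicate 1. Without replicate 2 there were 18, beside 27.8% of all genes.

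PPT1 is also a gene of neuronal ceroid lipofuscinosis, and the other genes of that disease group were examined with it. Of 12 listed, 10 were tested and 2 passed, both higher, beside 8.82% of all genes called higher and 14.0% called in all. CTSD, the lysosomal protease cathepsin D, was at 54.4, 55.2 and 58.3 FPKM in shNC and at 99.5, 83.3 and 96.0 FPKM in shScamp1 libraries. The groups were far apart, opposite in direction to PPT1, and CTSD rose by 0.73 in log2 (SE 0.09), at an adjusted p of 0.00404 in limma. ATP13A2, a lysosomal polyamine transporter, rose by 0.50 (adjusted p = 0.0140 in limma). The median of the 10 was 0.18. CTSD shares 11203 bases with the annotated gene AC068580.4 on its own strand, at 0.638 FPKM in shNC cells, and the sense intronic gene AC068580.1 within it had a log2 fold change of 1.10. The count was 1 without any 1 of the shNC libraries and 5 without shScamp1 replicate 2, beside 27.8% of all genes in the latter fit.

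Genes that supply or consume acyl-CoA, the donor of palmitoylation, were listed too. Of 29 listed, 24 were tested and 4 passed, 2 in each direction, and this 16.7% lay near the 14.0% of all genes. With scaling by total reads 0 were higher and 3 lower. ACOT4 (log2 fold change 0.72), a peroxisomal thioesterase, and ACBD5 (0.28), a peroxisomal acyl-CoA binding protein, were higher, while the acyl-CoA synthetases SLC27A2 (-0.53) and ACSL3 (-0.29) were lower, with adjusted p from 0.0204 to 0.0430 in limma. The median was 0.02. The count was 0 or 1 without any single shNC library and without shScamp1 replicate 1 or 3. Without shScamp1 replicate 2 it was 10, beside 27.8% of all genes.

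LYPLA1 was first described as a lysophospholipase, and 19 genes of lysophospholipid metabolism were compared with it. Of these, 17 were tested and 5 passed, 4 higher and 1 lower, beside 8.82% and 5.17% of all genes, with a median of 0.26, beside -0.02 for all genes. With scaling by total reads 2 were higher and 1 lower. GDPD3, a lysophospholipase D, was at 23.2, 21.0 and 23.0 FPKM in shNC and at 47.2, 45.3 and 45.9 FPKM in shScamp1 libraries. The groups were far apart, and GDPD3 rose by 1.04 in log2 (SE 0.07), at an adjusted p of 0.000601 in limma. It overlaps the antisense gene AC012645.2 (log2 fold change 1.29), which strandless counting would not separate. The acyltransferase MBOAT2 (0.77, or 0.64 without shScamp1 replicate 2) and the phospholipase PLA2G4A (0.40) were higher, as was LPCAT2 (0.31, named after its value was seen). LPCAT1 (-0.44), which reacylates lysophosphatidylcholine, was lower. Of the 14 alternatives, PLA2G4A passed under 5, and LPCAT1 and LPCAT2 under 6 each. The count was 1 without any 1 of the shNC libraries or without shScamp1 replicate 3, and 3 without replicate 1. Without replicate 2 it was 7, beside 27.8% of all genes.

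**Figure D5:**
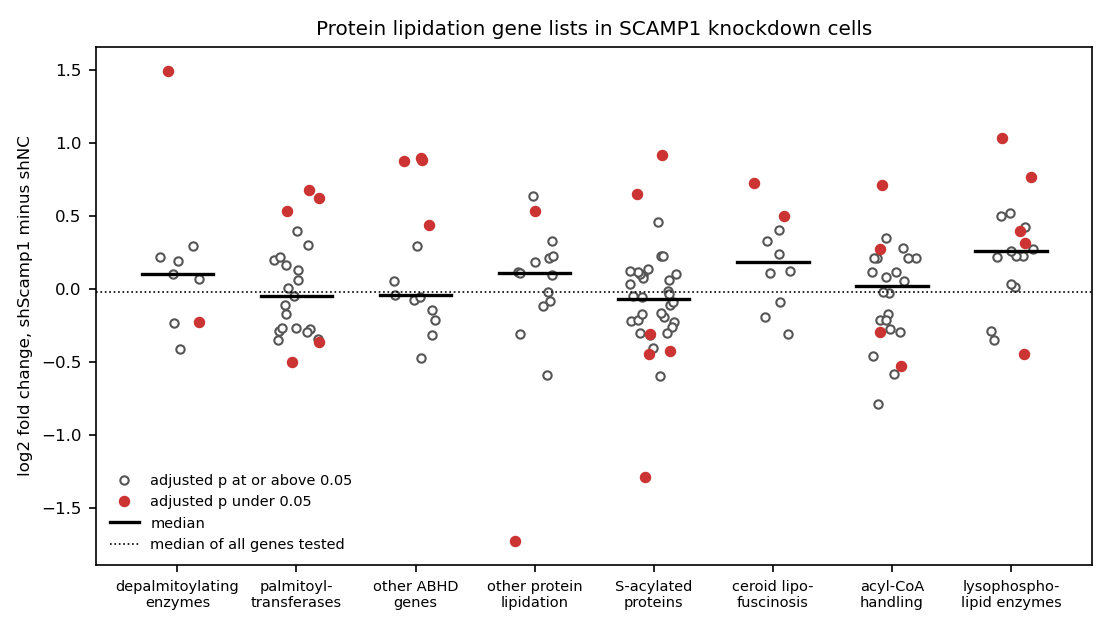
Log2 fold change (y axis, shScamp1 minus shNC) of each tested gene of the 8 lists (x axis), filled where the limma adjusted p was under 0.05, with the median of each list (bar) and of all genes tested (dotted line). LYPLA1, at 1.498, was the highest point, and the medians lay between -0.07 and 0.26.

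Of the 29 genes that passed (the list genes outside the 9 enzymes, and ATP6V1H), 4 (GDPD3, TEAD2, ABHD5 and CTSD) passed under every one of the 14 alternatives. The fewest passes were 5 of 14, for PLA2G4A and ACBD5. LPCAT1, LPCAT2, ACSL3 and CKAP4 passed under 6, and CAV1, TEAD1, ZDHHC11 and ACOT4 under 7.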

How the data were processed

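Gene expression was measured by RNA-seq in 6 NCI-N87 samples, 3 with shNC and 3 with shScamp1, grouped by their titles. The authors deposited FPKM per gene and library. The submitters' processing notes name HISAT2 2.0.5, featureCounts 1.5.0-p3, DESeq2 1.20.0 and hg38, and the strand setting is not given in the sources used here. The coordinates of all 58735 genes equalled GENCODE 29. Within a library, FPKM multiplied by gene length took values at whole steps (100% of values under 20000 reads, tolerance 0.01), from which reads per gene were recovered. The library size behind the steps equalled a median-of-ratios size factor times the geometric mean of the totals, so the deposited values were not normalized again. No per-sample column was left unused.

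Differences were tested in R 4.3.3 with limma 3.58.1 (lmFit, eBayes with trend) on log2(FPKM + 0.1), after a filter (mean of 0.5 FPKM or more) that left 15556 genes, all of which entered the Benjamini-Hochberg adjustment. This scale understates the change of low genes. Genes were called at an adjusted p under 0.05, and in addition with the study's limit of a log2 fold change beyond 1. The members and lists were chosen with earlier results of these data known. The lists were written from gene family names and known members. Named were the 9 enzymes, SCAMP1, up to 3 called genes per list and direction, the 5 genes most like LYPLA1, its 3 neighbours on each side, and copies or overlapping genes of members. For 3′ UTR sites, the 7 letters pairing with guide bases 2 to 8 were taken from the target stated in the methods and searched in GENCODE 29 transcripts. The fits were tested on simulated reads. Python 3.11.15 with pandas 2.3.3, numpy 2.4.6 and matplotlib 3.10.9 was used otherwise. Immunoblots, proliferation assays and tissue data were not analysed here.

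Alternatives covered the pseudocount (1), the filter (none, or at least 1 FPKM), the trend, voom on recovered reads, scaling by total reads, protein-coding genes alone, the replicate number as a block, and leaving out each library. The count of called enzymes under these alternatives, list medians and levels without shScamp1 replicate 2 were added after the data were seen.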

Additional observations from a re-analysis of the deposited data

How the results depend on the processing

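Among 126 counts of called genes recomputed under the alternatives, 63 stayed within 1.5 times the value with all libraries. For the 9 enzymes and SCAMP1, 134 of 140 log2 fold changes moved by less than the replicate SD. The filters, the trend, protein-coding genes alone and the block cannot change a log2 fold change, so part of the 134 was fixed in advance. The SD also holds the spread from shScamp1 replicate 2. Of those genes called with all libraries, 0 changed sign. Among those not called, LYPLAL1 and ABHD10 turned negative under some alternatives. LYPLA1 was between 1.35 (pseudocount 1) and 1.51. Leaving out each library in turn gave 808 to 4330 called genes, 1 to 5 enzymes, 0 to 12 palmitoyltransferases, 1 to 7 other ABHD genes, 0 to 4 genes of other protein lipidation, 1 to 18 S-acylated proteins, 1 to 5 ceroid lipofuscinosis genes, 0 to 10 acyl-CoA genes and 1 to 7 lysophospholipid genes. The highest counts came without shScamp1 replicate 2 and the count of 808 without shNC replicate 2. Without a filter, 1 enzyme, 3 S-acylated proteins, 1 acyl-CoA gene and 2 lysophospholipid genes were called. Without the trend these were 1 enzyme, 2 acyl-CoA genes and 3 lysophospholipid genes. With protein-coding genes alone, 8 palmitoyltransferases were called, and with scaling by total reads, which moved the median of all genes by -0.07, 8 palmitoyltransferases and 3 lysophospholipid genes, while all called genes went from 1372 higher and 805 lower to 1138 and 1268. With voom on recovered reads, 1 enzyme was called. With the replicate number as a block, 958 genes were called, with 1 enzyme, 2 palmitoyltransferases, 2 other ABHD genes, 1 S-acylated protein, 1 acyl-CoA gene and 2 lysophospholipid genes. Deviations of same-numbered samples correlated at -0.0351, 0.0325 and 0.0668 across genes, and not every sample correlated best with its own number. No pairing by number was seen in this way. The labels do not state whether same-numbered samples were prepared together, and such correlations cannot decide it. The cause of these shifts was not tested. Depth limits mainly PPT2 (29 to 75 reads).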
